A study of Mus musculus with 15 samples.

Results

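The genes examined were the 10 members of the MYC, MAX and MXD network in the count table, chosen by name. Earlier results of these data were known when the choice was made. The members were Myc, Mycn, Max, Mxd3, Mxd4, Mxi1, Mnt, Mga, Mlx and Mlxip. They are 10 of the 37310 genes listed, each symbol had 1 row, and all 10 passed the filter on low counts in every comparison. The question was how the paralog of Myc, the shared partner Max and the antagonists stood in embryonic stem cells with lower Myc RNA. Mycl, Mxd1 and Mlxipl, the other genes of the network in the table, were read beside them.

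MYC and MYCN are helix-loop-helix leucine zipper proteins that bind E-box DNA as pairs with MAX and activate genes of growth and biosynthesis. MXD proteins, MNT and MGA compete for MAX. MXD proteins and MNT recruit the SIN3 corepressor to the same E-boxes, and MGA brings MAX into the polycomb complex PRC1.6, which silences germline genes in embryonic stem cells. MLX is a second shared partner, which pairs with MLXIP (MondoA) to activate genes of glucose sensing such as Txnip and also pairs with some MXD proteins and MNT. Mouse embryonic stem cells express both Myc and Mycn, which can stand in for each other in self-renewal.

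All 15 libraries came from J1 cells, a mouse embryonic stem cell line, grown with serum and LIF, the cytokine that sustains self-renewal. A first experiment held 3 libraries each of cells labelled Taf5l-KO, Taf6l-KO and wildtype (here WT-Taf), and a second held 3 each labelled cMyc-KO and wild type control (WT-Myc). TAF5L and TAF6L belong to SAGA, a histone acetyltransferase complex. How the alleles were made, and whether replicates were separate cultures or clones, is not in the labels. The p-values therefore rest on the spread between libraries of a group, which can be technical. The descriptions of the cMyc-KO libraries share a code whose meaning is not given. Whether these libraries come from the same clone is therefore unknown, and effects of clone and knockout cannot be told apart. Both Taf knockouts were set against the same WT-Taf libraries, and their values are given side by side.

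Total counts ran from 14935631 to 27650813 per library. The RNA of each targeted gene fell in its own knockout but remained measurable: Taf5l had a log2 fold change of -1.02 ± 0.037 (SE) in Taf5l-KO and Taf6l one of -1.99 ± 0.080 in Taf6l-KO, and Myc is described below. Summed levels of 8 embryonic stem cell markers were 4177 to 4779 CPM (TMM-scaled counts as a rate of the library total) in the first experiment and 5988 to 6853 in the second, while 7 feeder fibroblast markers summed to 4.27 to 9.0 CPM, with Lum and Dcn at 0 in every group. Markers of neuroectoderm, mesoderm and endoderm each summed to 2.05 to 8.75 CPM and those of trophectoderm to 16.2 to 30.5. The trophectoderm sum was higher in Taf5l-KO (20.6 to 21.6) and Taf6l-KO (22.2 to 23.3) than in WT-Taf (16.2 to 17.7). It was also higher in cMyc-KO (26.9 to 30.5) than in WT-Myc (17.3 to 20.7). Of its 4 genes tested, edgeR called 2 higher and none lower in each Taf knockout. Of 3 tested in cMyc-KO, 1 was called higher and 2 lower. The sum of the stem cell markers was lower in both Taf knockouts (4177 to 4316 CPM) than in WT-Taf (4693 to 4779). It was higher in cMyc-KO (6627 to 6853) than in WT-Myc (5988 to 6179). Of these 8 genes, edgeR called 1 higher and 4 lower in Taf5l-KO and 6 lower in Taf6l-KO (adjusted p under 0.05). In cMyc-KO it called 3 higher and none lower. Over all tested genes 17.4% rose and 15.9% fell in Taf5l-KO, 19.1% and 18.2% in Taf6l-KO, and 15.2% and 19.5% in cMyc-KO. The part of all these markers in the results on the network was not tested. In such bulk RNA fewer cells of a type and less RNA per cell cannot be told apart. The library cMyc-KO replicate 3 stood apart: its genes deviated from the mean of the other replicates with an SD of 0.29 (log2), against 0.16 to 0.21 in the 14 other libraries. Small non-coding RNAs took 1.54% to 2.53% of counts in the first experiment and 0.021% to 0.057% in the second, although the labels give a single protocol, so comparisons across the experiments carry that difference.

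Promoters of 3 members are shown because their genes changed in at least 1 knockout and their sequences carry a motif tied to the network or to cell-cycle control. They are the 250 bases before the annotated start, 5′ to 3′ on the gene's strand, from RefSeq on GRCm38.p6, a newer build than the mm9 named for the deposited data. Capitals mark CACGTG, the palindromic E-box bound by MYC-MAX, MNT-MAX and MLX pairs, or TTTGGCGC, the site type bound by E2F factors, searched on both strands. Mycn lies at chr12:12941837-12942086 (minus strand), Mnt at chr11:74830674-74830923 (plus strand) and Mlx at chr11:101087040-101087289 (plus strand).
Mycn: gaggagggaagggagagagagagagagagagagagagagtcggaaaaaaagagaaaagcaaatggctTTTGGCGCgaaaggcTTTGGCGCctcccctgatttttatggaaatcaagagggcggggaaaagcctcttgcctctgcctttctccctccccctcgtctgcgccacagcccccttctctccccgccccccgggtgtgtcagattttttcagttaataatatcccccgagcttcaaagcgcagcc
Mnt: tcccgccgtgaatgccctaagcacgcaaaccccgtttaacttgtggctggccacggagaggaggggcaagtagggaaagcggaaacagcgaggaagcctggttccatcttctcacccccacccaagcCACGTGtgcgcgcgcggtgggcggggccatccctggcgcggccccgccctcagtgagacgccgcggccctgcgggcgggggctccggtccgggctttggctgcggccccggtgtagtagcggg
Mlx: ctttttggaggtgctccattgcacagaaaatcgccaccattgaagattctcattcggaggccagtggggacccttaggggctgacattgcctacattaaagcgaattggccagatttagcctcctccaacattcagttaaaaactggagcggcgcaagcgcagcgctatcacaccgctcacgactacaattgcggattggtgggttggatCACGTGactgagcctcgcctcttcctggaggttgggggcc
The Mycn window held TTTGGCGC 2 times, 183 and 168 bases before the start, a motif chosen after reading this sequence and present in 0.417% of 32851 RefSeq windows of the same length. The E-box lay 123 bases before the start of Mnt and 40 bases before that of Mlx. Mxd4, whose RNA was called in no knockout, had an E-box 219 bases before its start. CACGTG occurred in 6.02% of all windows and in those of 3 of the 9 members with a window. Myc had no window in the table. These matches describe the letters only.

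Per length of the longest transcript, Mycn was the more abundant of the MYC genes in wild-type cells, an order that held only in part with the deposited FPKM, a rate per gene length and library size. Levels were compared between genes as CPM per kilobase (kb) of the longest annotated transcript. In WT-Taf, Mycn stood at 43.6 ± 0.80 CPM per kb (SD, n = 3) and Max at 42.3 ± 1.31, and their ranges overlapped. Below them came Myc (29.6 ± 1.40), Mlx (22.3 ± 0.648), Mga (20.3 ± 1.20), Mnt (10.2 ± 0.384), Mlxip (6.92 ± 0.244), Mxi1 (5.10 ± 0.311), Mxd3 (2.73 ± 0.454) and Mxd4 (0.989 ± 0.020), each range lying apart from the next. The same order held in WT-Myc, where Mycn reached 74.5 ± 2.17 CPM per kb, Max 54.3 ± 0.955 and Myc 28.6 ± 0.890. The large repressors MGA and MNT were thus the antagonists with most RNA per length, and the MXD genes had the least. The deposited FPKM, which imply other gene lengths, give another order. In WT-Taf, Myc (141.5 to 150.7 FPKM) lay above Mycn (135.5 to 137.8), and both lay below Mlx (182.5 to 236.4) and Mga (581.6 to 620.4). In WT-Myc, Mycn (201.3 to 221.3 FPKM) lay above Myc (120.7 to 125.8).

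In CPM per kb, the place of Myc in that order moved in all knockouts. At 18.3 ± 0.422 CPM per kb in Taf5l-KO and 16.7 ± 1.15 in Taf6l-KO it stood below Mlx and Mga in both, each range lying apart. In cMyc-KO, at 12.5 ± 0.686 CPM per kb, it was also below these, and its range overlapped that of Mnt (12.5 ± 0.977). Mycn had the highest mean in every group on this scale, although its range overlapped that of Max in WT-Taf and in cMyc-KO.

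**Figure D1:**
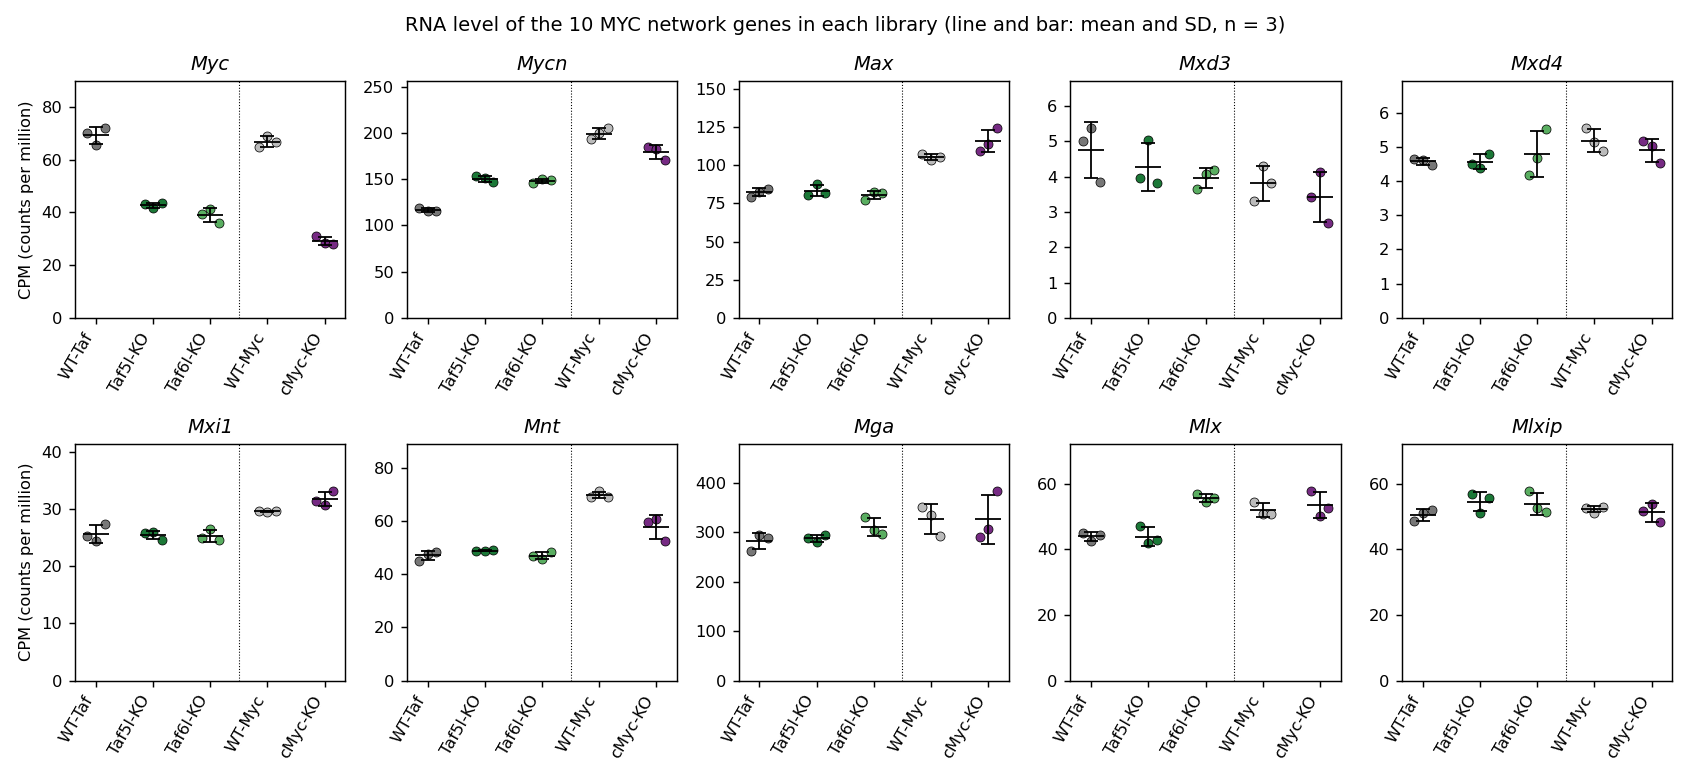
RNA level in CPM (vertical axis, from 0) of the 10 network genes in each of the 15 libraries, by group, with a line and bar for the mean and SD (n = 3); the dotted line parts the experiments. Myc was lower in every knockout library than in its own wild type, while Mycn was higher in both Taf knockouts (146.0 to 153.0 CPM) than in WT-Taf and not in cMyc-KO.

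Myc RNA fell in all 3 knockouts, and Mycn rose in both Taf knockouts. Myc was at 43.2, 41.6 and 43.4 CPM in the Taf5l-KO libraries, 39.3, 41.5 and 36.1 in Taf6l-KO, and 70.2, 65.6 and 71.9 in WT-Taf. Neither knockout overlapped the wild type. The level was 0.618-fold that of WT-Taf in Taf5l-KO (log2 fold change -0.69 ± 0.051 SE, adjusted p = 1.89e-07 by edgeR's quasi-likelihood test) and 0.563-fold in Taf6l-KO (-0.83 ± 0.051, adjusted p = 2.50e-08). In the second experiment Myc was at 31.0, 28.5 and 28 CPM in cMyc-KO and 64.7, 68.8 and 66.7 in WT-Myc. That is 0.437-fold (-1.19 ± 0.060, adjusted p = 2.10e-05 by edgeR), so the gene targeted there kept a sizeable amount of RNA; whether that RNA encodes protein was not measured.

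Mycn, the paralog, was at 153.0, 151.1 and 147.0 CPM in Taf5l-KO, 146.0, 150.4 and 148.5 in Taf6l-KO, and 119.2, 115.2 and 115.7 in WT-Taf. Every library of the Taf knockouts lay above every WT-Taf library. It rose 1.29-fold in Taf5l-KO (log2 fold change 0.37 ± 0.032, adjusted p = 8.28e-07 by edgeR) and 1.27-fold in Taf6l-KO (0.35 ± 0.031, adjusted p = 1.00e-06). In cMyc-KO, Mycn was at 184.9, 182.9 and 170.3 CPM against 193.2, 199.4 and 204.7 in WT-Myc. There the knockout libraries all lay below the wild type, but the change of -0.15 (95% interval -0.27 to -0.03) did not pass the threshold (adjusted p = 0.0533 by edgeR); in a fit of all 15 libraries together it passed (-0.12, adjusted p = 0.0412). A rise of Mycn like that of the Taf knockouts was outside this interval. The change of Mycn differed between the mean of the Taf knockouts and cMyc-KO by 0.46 ± 0.059 (adjusted p = 1.68e-05 by edgeR), the interaction being tested over all 15 libraries.

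Summed per length of the longest transcript, the RNA of Myc and Mycn in the Taf knockouts stayed within a few percent of the wild type. In cMyc-KO the sum was lower. These sums have no test. They were 75.7, 74.3 and 73.5 CPM per kb in Taf5l-KO, 71.4, 74.0 and 71.0 in Taf6l-KO, and 74.6, 71.1 and 74.0 in WT-Taf. All 3 ranges overlapped on this scale, and the ratios of means were 1.02 for Taf5l-KO and 0.985 for Taf6l-KO. In cMyc-KO the sum was 82.4, 80.6 and 75.6 CPM per kb against 99.9, 104.0 and 105.1 in WT-Myc, a ratio of 0.772 with no overlap. What the sum shows depends on the lengths used. The deposited FPKM imply gene lengths that give Myc more weight (531 bases for Myc and 948 for Mycn, against transcripts of 2338 and 2674). With FPKM the log2 ratios were -0.023, -0.12 and -0.46, in place of 0.025, -0.022 and -0.37. Every Taf6l-KO sum in FPKM lay below every WT-Taf sum, the nearest of them almost equal.

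The make-up of the sum changed in all 3. Mycn gave 75.6%, 76.1% and 74.7% of it in Taf5l-KO and 76.4%, 76.0% and 78.2% in Taf6l-KO, against 59.7%, 60.6% and 58.5% in WT-Taf. In cMyc-KO its share was 83.9%, 84.9% and 84.2%, against 72.3%, 71.7% and 72.8% in WT-Myc. The shares were thus higher by 15.9, 17.3 and 12.0 percentage points, in the first 2 through less Myc and more Mycn and in cMyc-KO through less Myc.

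**Figure D2:**
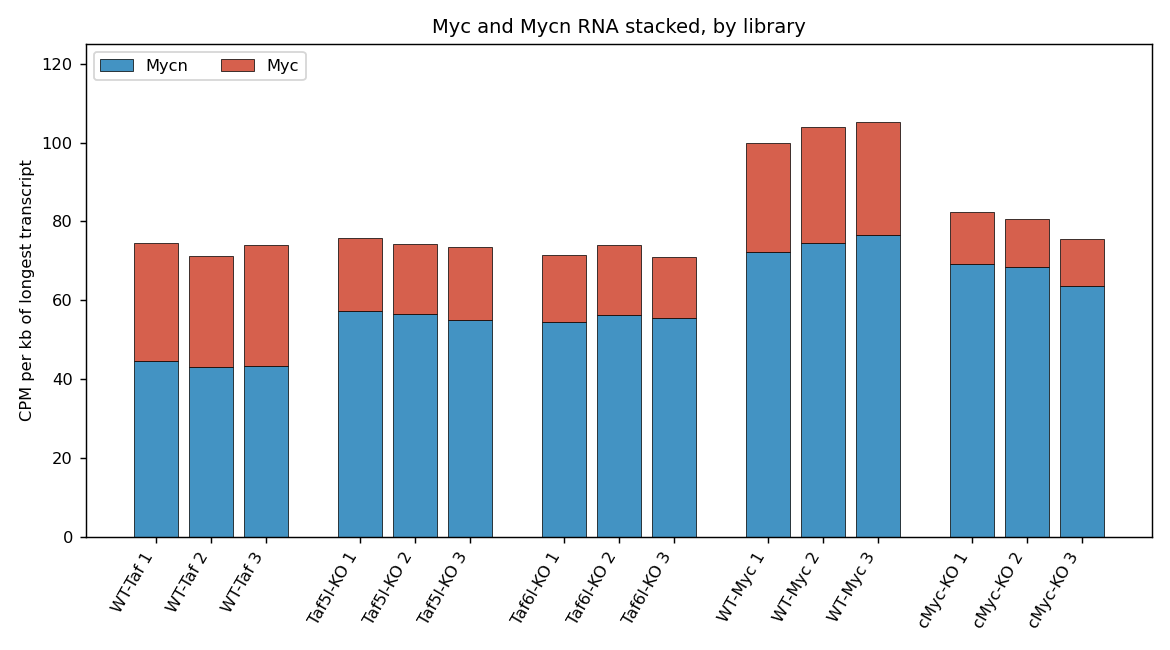
Myc (red) stacked on Mycn (blue) in CPM per kb of the longest transcript, 1 bar for each of the 15 libraries. Bars of the Taf experiment reach 71.0 to 75.7 in wild type and knockouts alike, while those of cMyc-KO (75.6 to 82.4) end below those of WT-Myc (99.9 to 105.1).

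Mycl, the other MYC paralog, was scarce but higher in each knockout. It was at 7.95, 7.70 and 7.57 CPM in Taf5l-KO, 8.97, 8.72 and 7.90 in Taf6l-KO, and 5.98, 6.46 and 5.14 in WT-Taf, without overlap. It rose 1.31-fold in Taf5l-KO (log2 fold change 0.39 ± 0.10, adjusted p = 0.0105 by edgeR) and 1.44-fold in Taf6l-KO (0.53 ± 0.10, adjusted p = 9.32e-04). With limma on the deposited FPKM neither call held (0.85 and 0.87, adjusted p = 0.0698 and 0.0609), and with DESeq2 that of Taf5l-KO was lost (adjusted p = 0.0524). In cMyc-KO it was at 16.0, 15.3 and 12.9 CPM against 12.7, 10.7 and 11.5, a rise of 1.27-fold that passed narrowly (0.34 ± 0.11, adjusted p = 0.0429 by edgeR). The call was lost when any library other than cMyc-KO replicate 3 was left out, and by limma on FPKM or normalized counts. With replicate number as a block it was lost as well (adjusted p = 0.0816 by edgeR). Per length, Mycl reached 2.21 CPM per kb in Taf5l-KO, 2.44 in Taf6l-KO and 4.20 in cMyc-KO, so it added little to the summed MYC RNA.

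Max, the partner that all of these need to bind DNA, did not pass the test in any knockout. It was at 80.7, 87.4 and 81.5 CPM in Taf5l-KO, 77.4, 82.4 and 81.8 in Taf6l-KO, and 79.5, 82.7 and 84.5 in WT-Taf, with overlapping ranges. The changes were 0.02 (95% interval -0.07 to 0.11) and -0.03 (-0.12 to 0.06) on the log2 scale. In cMyc-KO, Max was at 109.5, 114.1 and 124.1 CPM against 107.4, 103.6 and 105.6, the highest value being that of the library that stands apart. Its change of 0.14 (95% interval -0.0018 to 0.27) had an adjusted p of 0.116 by edgeR, and of 0.0400 with scaling to library totals. It was also called with all 15 libraries (0.17, adjusted p = 0.00876 by edgeR) and by limma on the deposited FPKM and normalized counts (0.24 in both).

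Of the antagonists, the MXD genes and Mxi1 passed the test in none of the 3 knockouts. Mxd3, the MXD gene of proliferating cells, ranged from 2.70 to 5.37 CPM over all libraries, and its log2 changes were -0.16, -0.28 and -0.17 in Taf5l-KO, Taf6l-KO and cMyc-KO. Its exons overlap the far more abundant antisense gene Prelid1 (4032 counts on average), and no source used here says whether counting used strand, so its level is uncertain. Mxd4, linked to withdrawal from the cell cycle, ranged from 4.19 to 5.54 CPM, with log2 changes of -0.01, 0.07 and -0.08. Mxd1, read beside them, ranged from 2.24 to 4.80 CPM and passed in none (0.03, 0.01 and -0.01). Mxi1, a member of the MXD family that recruits SIN3, was at 24.4 to 27.4 CPM in the first experiment, with changes of -0.01 on the log2 scale in both Taf knockouts. In cMyc-KO it was at 31.5, 30.8 and 33.2 CPM against 29.7, 29.4 and 29.8. All 3 knockout libraries lay above the wild type, but the change of 0.10 ± 0.055 missed the threshold (adjusted p = 0.184 by edgeR); it passed with all 15 libraries in 1 fit (0.13, adjusted p = 0.0470).

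Mnt, the most widely expressed MAX-binding antagonist of MYC, fell in cMyc-KO together with Myc. It was at 59.5, 60.7 and 52.4 CPM in cMyc-KO and 68.9, 71.2 and 69.1 in WT-Myc, the lowest being the library that stands apart. The level was 0.826-fold that of the wild type (log2 fold change -0.28 ± 0.067, adjusted p = 0.0155 by edgeR), and it was still called without that library (-0.19, adjusted p = 0.0114), but not without WT-Myc replicate 2 (-0.26, adjusted p = 0.0664), nor by limma on the deposited FPKM (adjusted p = 0.116) or normalized counts (0.0661). In Taf5l-KO it was at 48.6, 48.7 and 49.1 CPM, in Taf6l-KO at 46.9, 45.6 and 48.5, and in WT-Taf at 45.0, 47.6 and 48.4. Taf5l-KO lay just above the wild type in every library, but neither change passed the test (0.06 and 0.0021 on the log2 scale; adjusted p = 0.346 and 0.975 by edgeR). The difference between the mean Taf change and that of cMyc-KO passed (0.26 ± 0.076, adjusted p = 0.0132 by edgeR). Mnt lies on chromosome 11, whose genes had a median of -0.06 in cMyc-KO and of 0.11 in that difference. Less these medians, the values of Mnt were -0.22 and 0.15, and the part of the chromosome was not tested.

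Mga, the dual-specificity repressor that also has a T-box domain, was at 331, 304 and 297 CPM in Taf6l-KO and 263, 295 and 289 in WT-Taf. The groups lay next to each other without overlap, and the rise of 1.10-fold passed narrowly (log2 fold change 0.14 ± 0.047, adjusted p = 0.0307 by edgeR). The call was lost without Taf6l-KO replicate 1 (0.09, adjusted p = 0.152) or WT-Taf replicate 1 (0.09, adjusted p = 0.162). It was also lost in a fit of all 15 libraries (0.13, adjusted p = 0.271 by edgeR) and by limma on the deposited FPKM and normalized counts, where the change was only 0.013 (adjusted p = 0.929 and 0.893). In Taf5l-KO it was at 288, 281 and 295 CPM, overlapping the wild-type range. In cMyc-KO it was at 291, 306 and 384 CPM against 351, 336 and 293. The high value of replicate 3 sets the near-zero change of 0.0029 on the log2 scale; without it the change was -0.11, which also did not pass.

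Set against the summed MYC RNA, the 5 antagonists together moved little in the Taf knockouts. The ratio of Mxd3, Mxd4, Mxi1, Mnt and Mga to Myc and Mycn, both per length and with no test, was 0.524, 0.535 and 0.544 in Taf5l-KO, 0.588, 0.546 and 0.568 in Taf6l-KO, and 0.504, 0.568 and 0.539 in WT-Taf. Those ranges overlapped. In cMyc-KO it was 0.524, 0.556 and 0.636 against 0.492, 0.471 and 0.430 in WT-Myc, higher in every knockout library and 1.23 times the wild type on the means. The highest ratio, which raises that mean, was from the library that stands apart, replicate 3, where Mga was also highest. The summed antagonist level itself was 43.2, 44.8 and 48.1 CPM per kb in cMyc-KO and 49.2, 49.0 and 45.2 in WT-Myc, so the higher ratio came with a lower denominator. On the log2 scale the ratio differed by 0.30, and by 0.43 with the deposited FPKM.

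In the MLX arm of the network, Mlx rose in Taf6l-KO. Mlx was at 56.9, 54.4 and 55.8 CPM in Taf6l-KO, 47.1, 41.8 and 42.7 in Taf5l-KO, and 44.9, 42.5 and 44.4 in WT-Taf. Taf6l-KO lay above both other groups, which overlapped each other. It rose 1.27-fold against WT-Taf (log2 fold change 0.35 ± 0.047, adjusted p = 5.45e-05 by edgeR; 0.31, adjusted p = 0.0667 by limma on the deposited FPKM). The difference between the Taf knockouts passed as well (0.35, adjusted p = 1.90e-04 by edgeR), but not by limma on the deposited FPKM or normalized counts (0.24 in both, adjusted p = 0.221 and 0.135). Mlx lies on chromosome 11, where 39.1% of the 1300 tested genes rose in Taf6l-KO, with a median of 0.16; above that median Mlx was higher by 0.18. Mnt is on the same chromosome and lay 0.16 below that median. The exons of Mlx overlap the antisense gene Psmc3ip (296 counts on average). In cMyc-KO, Mlx was at 57.7, 50.1 and 52.6 CPM against 54.3, 50.6 and 50.8, a change of 0.04 that did not pass.

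Mlxip, the MondoA partner of MLX, passed in no knockout, although with scaling to library totals it was called higher in Taf6l-KO (0.16, adjusted p = 0.0320 by edgeR). It ranged from 51.2 to 57.8 CPM in the Taf knockouts and from 48.5 to 51.9 in WT-Taf, with changes of 0.11 and 0.09 on the log2 scale, and from 48.3 to 54.0 in the second experiment, with a change of -0.02. Mlxipl (ChREBP), the related glucose sensor of liver, had 10 to 31 counts per library. It fell in cMyc-KO (log2 fold change -1.17 ± 0.28, adjusted p = 0.0140 by edgeR), a call that rests on very few counts. The call was lost with DESeq2, with limma on FPKM (-0.74), without cMyc-KO replicate 2 and without WT-Myc replicate 3. It was also lost with replicate number as a block (adjusted p = 0.0570 by edgeR). Txnip, Klf10 and Arrdc4, known targets of MLX pairs, were read beside them. Txnip, an inhibitor of glucose uptake, fell in all knockouts (-0.40, -0.20 and -0.57 in Taf5l-KO, Taf6l-KO and cMyc-KO; adjusted p = 5.10e-06, 0.00158 and 1.84e-04 by edgeR). Klf10, an early transcriptional repressor, fell in cMyc-KO (-0.58 ± 0.048), and Arrdc4, a paralog of Txnip, passed in none (0.11, 0.16 and -0.17).

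Counted over the 10 members, 1 rose and 1 fell in Taf5l-KO, where 33.2% of all tested genes were called (17.4% higher and 15.9% lower). In Taf6l-KO 3 rose and 1 fell, beside 37.2% of all genes (19.1% higher and 18.2% lower). In cMyc-KO none rose and 2 fell, Myc and Mnt, beside 34.8% of all genes (15.2% higher and 19.5% lower). In this edgeR fit no member was higher at an unadjusted p under 0.05 either, and DESeq2 called none higher. Max was called higher by edgeR with library totals and by limma on the deposited FPKM and normalized counts. With all 15 libraries in 1 fit, edgeR called Max and Mxi1 higher. Direct comparison of Taf6l-KO with Taf5l-KO called 1 member, Mlx, beside 18.7% of genes (8.55% higher and 10.1% lower). The interaction of the mean Taf change with that of cMyc-KO called 3 members higher (Myc, Mycn and Mnt) and 1 lower (Max), beside 35.3% of genes (16.9% higher and 18.4% lower). The medians of the members were 0.008, 0.034 and -0.052 on the log2 scale against 0.001, 0.020 and -0.002 over all genes. The share of members called was below the background in Taf5l-KO and cMyc-KO and close to it in Taf6l-KO. Ranges that did not overlap the wild type occurred for 3 members in Taf5l-KO, 4 in Taf6l-KO and 5 in cMyc-KO, beside 44.7%, 49.0% and 49.6% of all genes.

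**Figure D3:**
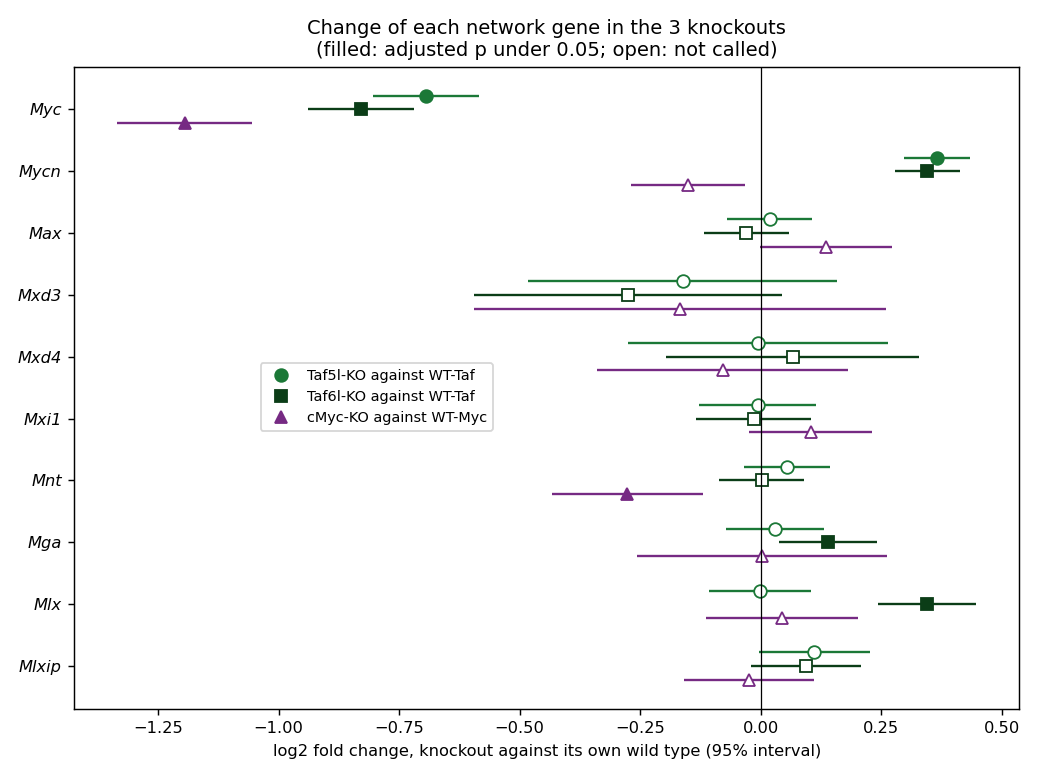
Log2 fold change of each network gene against its own wild type (horizontal axis) with its 95% interval, for Taf5l-KO (circles), Taf6l-KO (squares) and cMyc-KO (triangles); filled symbols passed an adjusted p of 0.05. Myc lies to the left in all 3, Mycn to the right in the Taf knockouts, Mnt to the left in cMyc-KO, and Mlx and Mga to the right in Taf6l-KO.

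Genes that work with the network were read from lists chosen by known function, with earlier results of these data known. Among 13 cofactors of MYC, 2 rose and 3 fell in Taf5l-KO, 4 rose and 3 fell in Taf6l-KO, and 1 rose and 5 fell in cMyc-KO (1 and 3 without cMyc-KO replicate 3). Over all tested genes 17.4% rose and 15.9% fell in Taf5l-KO, 19.1% and 18.2% in Taf6l-KO, and 15.2% and 19.5% in cMyc-KO, and the counts in Taf5l-KO were near those shares. Wdr5, which tethers MYC to chromatin, fell in both Taf knockouts (-0.37 ± 0.034 and -0.50 ± 0.034) and rose in cMyc-KO (0.44 ± 0.049), and that difference passed (-0.91, adjusted p = 1.32e-08 by edgeR). Trrap, the scaffold through which MYC binds acetyltransferase complexes including SAGA, went the other way, at 0.22, 0.29 and -0.15, all called. Bptf, the chromatin remodeller subunit that MYC needs at its targets, rose in the Taf knockouts (0.13 and 0.31) and fell in cMyc-KO (-0.21).

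Of 15 regulators of Myc transcription, 5 rose and 4 fell in Taf5l-KO, 3 and 3 in Taf6l-KO, and 2 and 6 in cMyc-KO, beside 17.4% and 15.9%, 19.1% and 18.2%, and 15.2% and 19.5% of all genes. The counts in Taf6l-KO were near the share of all genes. The pluripotency factors Klf4 (-0.63 and -0.58) and Esrrb (-0.27 and -0.33) fell in the Taf knockouts, and both rose in cMyc-KO (0.29 and 0.16). Fubp1, which binds the far upstream element of Myc, rose in Taf5l-KO and Taf6l-KO (0.36 and 0.09) and fell in cMyc-KO (-0.25). Foxo3, an opponent of MYC in growth control, fell in cMyc-KO (-0.40 ± 0.043).

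Of 16 genes that set MYC protein stability, 5 rose and 4 fell in Taf5l-KO, 4 and 5 in Taf6l-KO, and 4 and 2 in cMyc-KO, where 33.2%, 37.2% and 34.8% of all genes were called in either direction. The count in cMyc-KO was near that share. Fbxo32, an F-box protein, rose in all 3 (0.81, 1.06 and 0.88). Pim1, a kinase that stabilises MYC, fell in the Taf knockouts (-0.42 and -0.55) and was at -0.0046 in cMyc-KO. Ppp2r5a, the phosphatase subunit that aids MYC turnover, fell in the Taf knockouts (-0.36 and -0.65) and rose in cMyc-KO (0.27). Usp28, a deubiquitinase that protects MYC, rose in Taf5l-KO (0.23) and fell in cMyc-KO (-0.37).

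The corepressor genes through which the antagonists act were read next. Of 17 SIN3 complex genes, 2 rose and 6 fell in Taf5l-KO and 1 rose and 7 fell in Taf6l-KO, while 3 rose and 1 fell in cMyc-KO (4 and 2 without cMyc-KO replicate 3). Over all genes 15.9%, 18.2% and 19.5% fell and 17.4%, 19.1% and 15.2% rose in Taf5l-KO, Taf6l-KO and cMyc-KO. Sap30 fell in both Taf knockouts (-0.52 ± 0.037 and -0.57 ± 0.037), as did Ing1 (-0.26 and -0.34), both being subunits of the SIN3 histone deacetylase complex. Suds3 fell in Taf6l-KO (-0.22) and rose in cMyc-KO (0.28), and Sap18 fell in cMyc-KO (-0.64). Of 13 genes of the MGA complex, 2 rose and 3 fell in each Taf knockout, and 2 rose and 1 fell in cMyc-KO (2 and 2 without that library), near those shares of all genes in the Taf knockouts. Pcgf6, its defining subunit, fell slightly in the Taf knockouts (-0.17 and -0.19) and rose in cMyc-KO (0.23). Ehmt2, a histone methyltransferase, rose in Taf5l-KO (0.32) and fell in cMyc-KO (-0.28).

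Of 19 tested germline genes that the MGA and MAX complex silences, 11 fell in each Taf knockout and 8 were not called (medians -0.54 and -0.50), where 15.9% and 18.2% of all genes fell. Stag3, a meiotic cohesin subunit, fell in both (-1.06 ± 0.084 and -1.15 ± 0.083) and rose in cMyc-KO (1.13 ± 0.091). Zcwpw1, a meiotic histone reader, fell in both Taf knockouts (-1.0 and -1.21) and was at 0.02 in cMyc-KO. In cMyc-KO 3 of 18 rose and 4 fell, near the 15.2% and 19.5% of all genes, Mov10l1, a helicase of the piRNA pathway, among the latter (-1.09 ± 0.14).

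Targets that MYC is known to activate included many that fell. Of 33 tested, 17 fell and 2 rose in Taf5l-KO, 17 fell and 5 rose in Taf6l-KO, and 11 fell and 1 rose in cMyc-KO (14 and 1 without cMyc-KO replicate 3), with medians of -0.11, -0.10 and -0.09; over all genes 15.9%, 18.2% and 19.5% fell. Ccnd2, a D-type cyclin, fell in all 3 (-1.05, -0.77 and -1.02), as did Apex1, a DNA repair endonuclease (-0.15, -0.23 and -0.69). Dkc1, the pseudouridine synthase of ribosome biogenesis, fell in the Taf knockouts (-0.26 and -0.36) and was at 0.02 in cMyc-KO. Tfrc, the transferrin receptor, fell in the Taf knockouts (-0.37 and -0.21) and did not pass in cMyc-KO (-0.17 ± 0.15). Of 7 targets that MYC is known to repress, 2 rose and 2 fell in Taf5l-KO, and 3 rose and 2 fell in Taf6l-KO. In cMyc-KO 6 fell and none rose. The medians were -0.13, 0.06 and -0.68, and over all genes 17.4%, 19.1% and 15.2% rose. Cdkn1a, the p21 inhibitor of the cell cycle, rose in the Taf knockouts (0.32 and 0.36) and fell in cMyc-KO (-0.68 ± 0.062), and Ndrg1, a stress-responsive gene, did the same (0.60, 0.46 and -0.58). Cdkn1c, the p57 inhibitor, fell in all 3 (-0.61, -0.58 and -1.59).

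**Figure D4:**
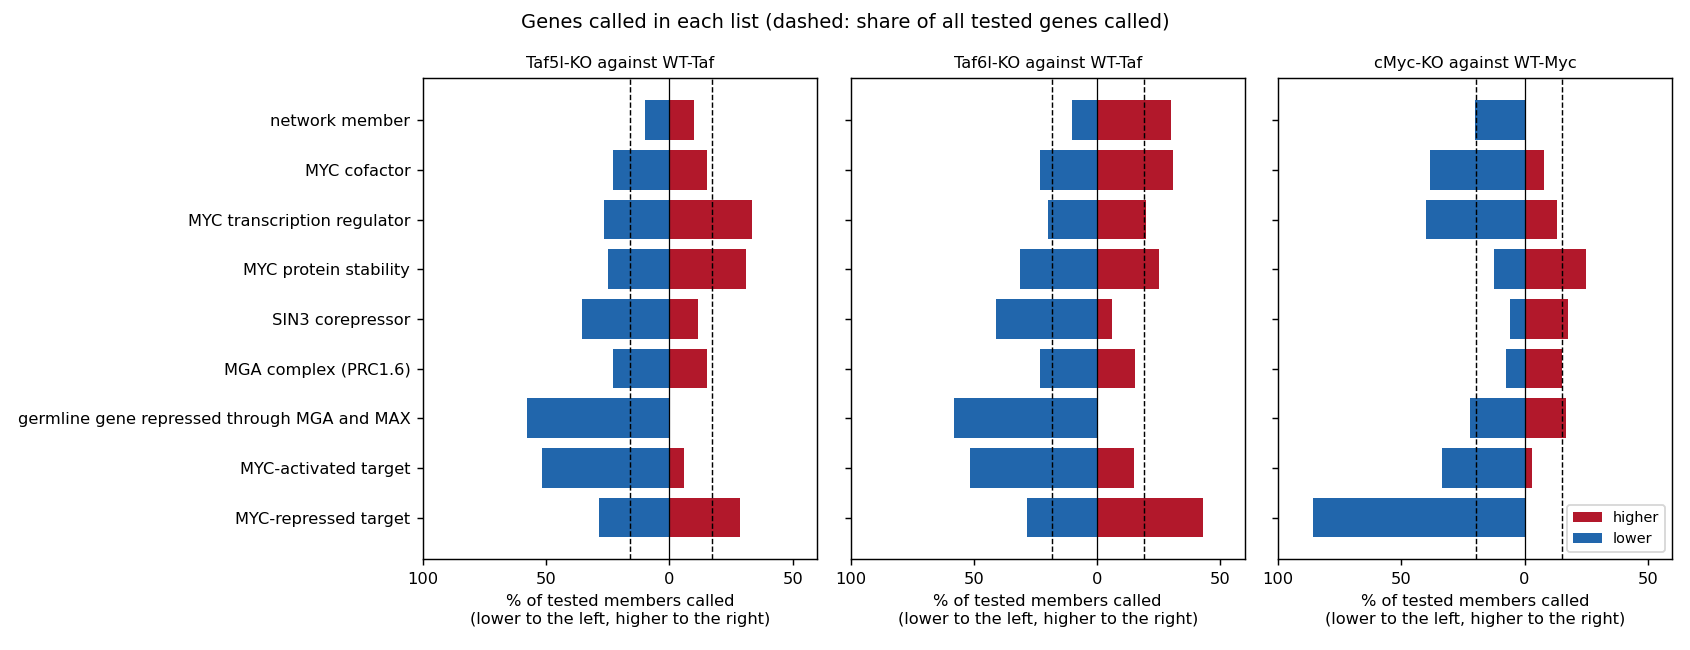
Share of the tested genes of each list called higher (red, to the right) or lower (blue, to the left) in each knockout, in percent, with dashed lines at the share of all tested genes. Bars of the network members stay near or inside the dashed lines except for rises in Taf6l-KO. Germline genes, cofactors, transcription regulators and both sets of MYC targets pass the lower line in all 3 knockouts, several of them narrowly. Germline genes in cMyc-KO and transcription regulators in Taf6l-KO lie near that line. In each Taf knockout the bars of cofactors and of repressed targets rest on 3 and 2 genes that fell.

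The wild types of both experiments also differed in network genes, and experiment and cells cannot be told apart there. Beside 65.4% of all genes called (32.5% higher and 33.0% lower), 3 members were higher in WT-Myc (Mycn by 0.66, Mnt by 0.45 and Max by 0.25 on the log2 scale) and 2 were lower (Mxd3 at -0.43 and Myc at -0.17). The calls of Mxd3 and Myc were lost in 10 and 6 of 25 alternatives. Mycl was higher by 0.86 and Mxd1 by 0.62. The gap of Mycn between these wild types, 1.58-fold, was larger than its rise in either Taf knockout.

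Across all 15 libraries, each centred on its own wild type, the genes whose pattern was most like that of Myc among 7980 compared were Epas1 (Pearson r = 0.990), Bmp4 (0.988), Dusp9 (0.986), Cpt1a (0.986) and Etv5 (0.985). Those most like Mycn were Tspan9, Lrpap1 and Mfge8 (each 0.990). These values describe libraries that share wild types and knockouts, and carry no test. Epas1, a hypoxia-inducible factor, had log2 changes of -0.63, -0.70 and -0.93 in Taf5l-KO, Taf6l-KO and cMyc-KO, and Tspan9, a tetraspanin, had 0.70, 0.61 and -0.20.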

How the data were processed

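The authors deposited whole-number estimated counts per gene; Salmon 0.8.2, DESeq2 1.14.1 and the build mm9 come from the submitters' processing notes, and no source used here names the annotation. Counts were tested with edgeR 4.0.16 (TMM, filterByExpr, quasi-likelihood F test, Benjamini-Hochberg over all tested genes, threshold 0.05) in R 4.3.3. Before that, the procedure was run on counts simulated from the same kind of model, with the spread estimated from these data. That run cannot show how the procedure handles clones, batches or a library that stands apart. The 9 libraries of the first experiment were fitted together, the 6 of the second together, and comparisons across them on all 15. The deposited FPKM imply lengths far below the annotated transcripts, so CPM per kb of the longest GENCODE M21 transcript replaced them between genes, a choice made after seeing the files. The deposited FPKM and normalized counts (a signal on the count scale) served alternatives, as log2(value + 1), for FPKM with a mean of at least 0.5. The authors' TPM table was not used, because 15 columns could not be assigned. Members and the 17 lists were chosen with earlier results of these data known. The text names all members, the targeted genes, up to 2 genes per list and knockout by smallest p, and the genes most like Myc and Mycn. Of 185 list entries 184 matched; GENCODE matched 87.4% of genes. Changes of the members and other network genes were repeated with DESeq2 1.42.0, limma 3.58.1, scaling by RLE or library totals, and no filter. They were also repeated with the replicate block, other sets of libraries or rows, and each library left out. Sums of Myc, Mycn and the antagonists were repeated with other lengths or units and each library left out. Counts for the other lists were repeated only without cMyc-KO replicate 3. Genes named from those lists, the targeted genes and the likeness were not repeated.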

Additional observations from a re-analysis of the deposited data

Results flagged for a closer look

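Changes in the mean of the Taf knockouts differed from the change in cMyc-KO, by edgeR's interaction test over all 15 libraries, for 4 of the 10 members, beside 35.3% of all genes called. Myc fell less in the Taf knockouts, by 0.39 on the log2 scale (adjusted p = 0.00119), and Mycn was higher by 0.46 (adjusted p = 1.68e-05). Both were called in all 25 alternatives. Mnt differed by 0.26 (adjusted p = 0.0132), a call kept in 23 of 25 alternatives and lost with limma on the deposited FPKM and normalized counts. The median of its chromosome was 0.11 in this difference, and Mnt lay 0.15 above it. Max differed by -0.18 (adjusted p = 0.0310), kept in 15 of 25 and lost, among others, without cMyc-KO replicate 3 (-0.14). Of the other network genes, Mlxipl differed by 1.16 (adjusted p = 0.0370), kept in 11 of 25, on 10 to 31 counts per library. The experiments differ in their share of small non-coding RNAs, and the part of that difference in these values was not tested.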

How the results depend on the processing

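Myc and Mycn kept their calls in both Taf knockouts in 19 of 19 alternatives, and Myc in cMyc-KO in 16 of 16; Mlx in Taf6l-KO kept its call in 18 of 19, Mga in 14 of 19 and Mnt in cMyc-KO in 12 of 16. Replicate numbers did not pair the libraries: deviations of same-numbered libraries correlated at -0.075 to 0.068 in the first experiment and -0.45 to -0.096 in the second. With the replicate block, 1 member fell in cMyc-KO in place of 2 (Mnt, adjusted p = 0.0557 by edgeR), 0 in place of 2 were lower in WT-Myc than in WT-Taf, and no other count of members called moved by over 1.5 times. Library totals in place of TMM gave 69.0% rises among calls in Taf6l-KO in place of 51.2%, an all-gene median of 0.088, and left Mlx at 0.41. Members called higher in Taf6l-KO numbered 1 in place of 3 with FPKM. In cMyc-KO, 1 was higher with library totals, 2 with all 15 libraries, and 1 with FPKM or normalized counts, and 1 was lower with either of these, and 1 to 2 with a library left out. Against Taf5l-KO, Taf6l-KO had 2 higher with library totals, 0 with FPKM or normalized counts, and 0 to 1 lower with a library left out. In the interaction, 0 in place of 1 were lower with library totals, no filter or DESeq2, and 0 to 1 with a library left out. Between wild types, 6 were higher and 0 lower with library totals, 0 lower with no filter, 1 lower with DESeq2, FPKM or normalized counts, and 0 to 2 with a library left out. With FPKM the shares of Mycn were higher by 17.4, 20.5 and 14.6 points and the log2 ratios of the Myc and Mycn sums were -0.023, -0.12 and -0.46; without a length the share in cMyc-KO was higher by 11.1. The causes were not tested.

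Signs turned only where the change passed no test. In Taf5l-KO these were Max (-0.0055 with library totals, -0.020 with FPKM and with normalized counts, -0.018 to 0.039 with a library left out), Mxd4 (0.016 with FPKM, 0.022 with normalized counts, -0.045 to 0.025 with a library left out), Mga (-0.046 with both, -0.019 to 0.062 with a library left out), Mlx (0.074 with both, -0.054 to 0.032 with a library left out) and Mxi1 (-0.045 to 0.038 with a library left out). In Taf6l-KO they were Max (0.039 with library totals), Mxi1 (0.053 with library totals, -0.054 to 0.029 with a library left out), Mxd4 (-0.051 to 0.16 with a library left out) and Mnt (-0.0081 with RLE and with all 15 libraries, -0.0040 with no filter, -0.0085 with DESeq2, -0.0092 with only the groups compared, -0.087 with FPKM, -0.089 with normalized counts, -0.16 against the median of its chromosome, -0.030 to 0.022 with a library left out). In cMyc-KO they were Mga (-0.0041 with the block, -0.013 with FPKM and normalized counts, -0.11 to 0.084 with a library left out), Mlx (-0.0094 to 0.099 with a library left out) and Mlxip (0.016 with library totals, 0.0068 with all 15 libraries, -0.052 to 0.037 with a library left out). Depth limits Mlxipl, Mxd1, Mxd3 and Mxd4 most, which had the fewest counts.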
